A study of Brassica napus with 23 samples.

Results

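FLOWERING LOCUS C (FLC) encodes a MADS-box transcription factor that delays flowering. Brassica napus (oilseed rape) joins an A and a C subgenome and carries several FLC copies in each. The levels of 9 of them were followed here, 4 A copies and 5 C copies, among 101040 gene IDs in a deposited table of read counts. They were chosen by gene ID: FLC.A02 (BnaA02g00370D), FLC.A03a (BnaA03g02820D), FLC.A03b (BnaA03g13630D) and FLC.A10 (BnaA10g22080D) in the A subgenome, and FLC.C02 (BnaC02g00490D), FLC.C03a (BnaC03g04170D), FLC.C03b (BnaC03g16530D), FLC.C09a (BnaC09g46500D) and FLC.C09b (BnaC09g46540D) in the C subgenome. The table names no gene and the RefSeq table used for names matched 0 of the 9 IDs, so their identity as FLC rests on the ID list alone.

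RNA was sequenced in 23 libraries from shoots and roots. The plants, grown for 14 days per the labels, were treated 7 days after planting and harvested 24 h or 7 d later. Controls received LB broth, and treated plants 15 mL of cultured Pseudomonas chlororaphis PA23, a biocontrol bacterium. Tissue, treatment and harvest gave 8 groups, of 3 libraries each except root control at 24 h, which held replicates 2 and 3. The labels name no cultivar, no growth temperature and no cold treatment, and they do not say whether replicates were separate plants, so p-values reflect the scatter of these libraries alone, some of which may be technical. The age at the 24 h harvest is uncertain, because the labels give 14 days of growth for it as well.

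In Arabidopsis thaliana, FLC holds back flowering by repressing FT, which encodes the mobile flowering signal, and SOC1, a MADS-box activator of flowering. Prolonged cold, known as vernalization, silences FLC through Polycomb chromatin marks and so allows flowering in spring. In Brassica napus, differences among the FLC copies have been linked to the vernalization need and the flowering time of winter and spring types.

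Depth ran from 0.622 to 721 M counts (M, mega) and bounded what could be seen of these copies. The total was under 2 M counts in 6 libraries: shoot control at 24 h replicate 1, shoot PA23 at 24 h replicate 1, shoot control at 7 d replicate 2, shoot PA23 at 7 d replicate 2, root control at 7 d replicate 3 and root PA23 at 7 d replicate 3. In these 6 libraries 37 of the 54 copy values rested on fewer than 10 counts and 16 were 0, and 3 counts there were worth 2.09 to 3.7 CPM (counts per M of TMM-scaled counts). In the other 17 libraries 3 counts were worth 0.00386 to 0.213 CPM. Libraries of 2 M or more correlated at 0.949 to 0.992 (Spearman, 68002 genes) within a tissue and at 0.583 to 0.641 between tissues. The labelled tissue could not be checked against marker genes, since the IDs carry no descriptions.

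The table gives coordinates for the copies, in a genome build that no source used here names. FLC.A02 is at A02:134362-138212 and FLC.C02 at C02:208562-212139. FLC.A03a is at A03:1360971-1364359 and FLC.C03a at C03:2001058-2004665. FLC.A03b is at A03:6240056-6245305 and FLC.C03b at C03:8403312-8410062. FLC.A10 is at A10:14998617-15003197, FLC.C09a at C09:46345350-46350092 and FLC.C09b at C09:46366645-46371180. Their lengths run from 3389 bases (FLC.A03a) to 6751 bases (FLC.C03b) and equal end minus start plus 1, so any introns lie inside the span. No neighbouring gene model overlapped a copy. The counting tool, its strand setting and its treatment of reads shared by near-identical copies are named by no source used here, so antisense transcripts of FLC cannot be told apart from sense ones, and the split of a signal between an A copy and its C partner is uncertain.

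FLC.A03a was abundant in shoots and nearly absent from roots. Among the 12 shoot libraries its level ran from 14.3 to 31.2 CPM, and among the 11 root libraries from 0 to 0.226 CPM. In control shoots at 24 h it was 21.1, 16.8 and 16.3 CPM in replicates 1 to 3, and in control roots at 24 h it was 0.108 and 0.226 CPM in replicates 2 and 3. In control shoots at 7 d it was 21.1, 31.2 and 25 CPM, and in control roots at 7 d 0.0415, 0 and 0 CPM (4, 0 and 0 counts). No root library approached any shoot library.

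With PA23 the FLC.A03a levels were 19.5, 17.3 and 14.3 CPM in shoots at 24 h and 29.4, 18.5 and 27.2 CPM in shoots at 7 d. In PA23 roots they were 0.0992, 0.0971 and 0.0676 CPM at 24 h and 0.0276, 0.103 and 0 CPM at 7 d, the last of these from 1, 4 and 0 counts. The shoot and root values again lay far apart. Pooled over all libraries of a group, the shoot level was 95.3 times the root level in controls at 24 h (95% counting interval 62.7 to 152), 887 times in controls at 7 d (346 to 3260), 176 times with PA23 at 24 h (142 to 221) and 434 times with PA23 at 7 d (186 to 1340). The intervals at 7 d are wide because the pooled root sums were 4 and 5 counts. They cover counting error alone, with no allowance for the scatter of replicates.

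**Figure D1:**
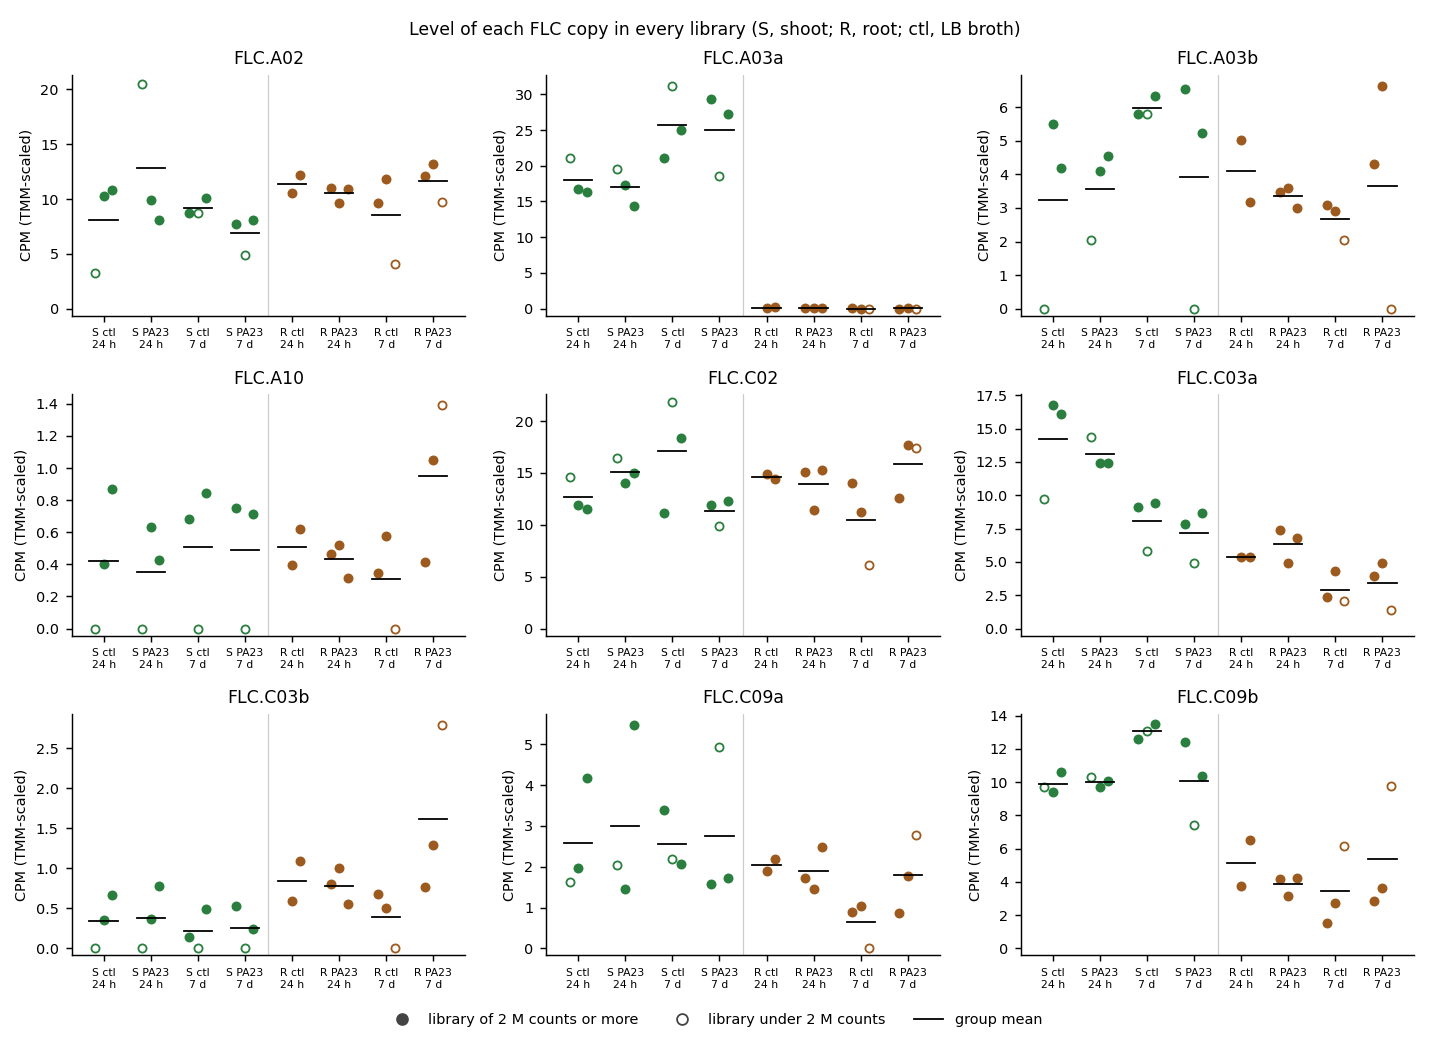
Level of each of the 9 FLC copies in every library, as CPM scaled by TMM, with a panel per copy and its own axis. Points are libraries, grouped by tissue (S, shoot; R, root), treatment and harvest; FLC.A03a reached 14.3 to 31.2 CPM in shoots and at most 0.226 CPM in roots, while FLC.C02 and FLC.A02 stood at like levels in both tissues.

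In the edgeR quasi-likelihood test the shoot-over-root log2 fold change of FLC.A03a was 6.65 ± 0.42 (SE, adjusted p = 1.37e-14) in controls at 24 h and 9.83 ± 0.50 (adjusted p = 1.23e-16) in controls at 7 d. With PA23 the edgeR values were 7.46 ± 0.36 (adjusted p = 1.89e-17) at 24 h and 8.62 ± 0.47 (adjusted p = 6.37e-16) at 7 d. FLC.A03a passed the filter on low counts in this joint fit through its shoot counts. The adjusted p-values therefore add no support beyond the levels themselves. With root counts this near 0 the fitted sizes depend on the prior count of the fit and are no bound. Their SE, derived from the sizes, is no measure of precision here. Without root replicate 1 the remaining control root libraries at 7 d were both at 0 and the fitted value was 13.78. Changes at least as large as that of FLC.A03a in the same contrast, in either direction, were found in 10.5% of tested genes in controls at 24 h, 4.29% in controls at 7 d, 7.9% with PA23 at 24 h and 5.93% with PA23 at 7 d. The labels carry a pair of sequencing run numbers: all shoot libraries and 4 root libraries were in the lower-numbered run and 7 root libraries in the other. Among root libraries of 2 M or more, FLC.A03a was at 0.0415 to 0.226 CPM in the 3 of the lower-numbered run and at 0 to 0.108 CPM in the 6 of the other.

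Other copies differed far less between tissues. Of the 9 copies, 3 passed the edgeR threshold (adjusted p under 0.05) in controls at 24 h, 4 in controls at 7 d, 3 with PA23 at 24 h and 4 with PA23 at 7 d. The shares of all 68002 tested genes that passed were 49%, 54%, 55.4% and 51.8%, so the copies were called no more often than genes at large. By direction, 20.8%, 23.9%, 22.9% and 22% of all genes were called higher in shoots and 28.2%, 30.1%, 32.5% and 29.8% lower. The median log2 fold change over the 9 copies was 0.21, 1.05, 0.29 and 0.17 in that order, against -0.20, -0.09, -0.23 and -0.15 over all tested genes. FLC.A03a, FLC.C03a and FLC.C09b were called higher in shoots in all 4 contrasts, FLC.C09a in controls at 7 d, and FLC.C03b was called lower in shoots with PA23 at 7 d. FLC.A02, FLC.A03b, FLC.A10 and FLC.C02 were called in none of the 4.

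FLC.C03a, the C partner of FLC.A03a, was also higher in shoots, but was readily measured in roots. In control shoots it was 9.74, 16.8 and 16.1 CPM at 24 h and 9.11, 5.8 and 9.4 CPM at 7 d. In control roots it was 5.33 and 5.35 CPM at 24 h and 2.4, 4.34 and 2.04 CPM at 7 d. The tissues did not overlap at either harvest. Its log2 fold change in edgeR was 1.51 ± 0.32 (adjusted p = 0.000198) at 24 h and 1.41 ± 0.31 (adjusted p = 0.000287) at 7 d.

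With PA23, FLC.C03a was 14.4, 12.4 and 12.4 CPM in shoots at 24 h and 7.39, 4.95 and 6.76 CPM in roots. At 7 d with PA23 it was 7.82, 4.93 and 8.65 CPM in shoots and 3.95, 4.89 and 1.39 CPM in roots, where the lowest shoot library, of under 2 M counts, was just above the highest root library. The edgeR log2 fold changes were 0.99 ± 0.28 (adjusted p = 0.0038) at 24 h and 0.95 ± 0.31 (adjusted p = 0.0109) at 7 d. Both PA23 calls ended when libraries were scaled by their plain totals (0.51, adjusted p = 0.114, and 0.25, adjusted p = 0.48 in edgeR), whereas the control calls held (0.95 and 0.86, adjusted p = 0.00856 and 0.0158). At 7 d with PA23 the call also ended without shoot replicate 3 (edgeR adjusted p = 0.0724) and with the closest pairs of replicates summed (edgeR adjusted p = 0.0517).

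FLC.C09b stood at 7.4 to 13.5 CPM in shoots. In control shoots it was 9.74, 9.41 and 10.6 CPM at 24 h and 12.6, 13.1 and 13.5 CPM at 7 d. In control roots it was 3.75 and 6.5 CPM at 24 h and 1.55, 2.73 and 6.13 CPM at 7 d, the highest of these from 6 counts. Every shoot control lay above every root control. In edgeR the log2 fold change was 0.96 ± 0.36 (adjusted p = 0.026) at 24 h and 2.48 ± 0.37 (adjusted p = 1.15e-06) at 7 d.

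With PA23, FLC.C09b was 10.3, 9.72 and 10.1 CPM in shoots and 4.19, 3.17 and 4.24 CPM in roots at 24 h, with an edgeR log2 fold change of 1.35 ± 0.32 (adjusted p = 0.000649). At 7 d it was 12.4, 7.4 and 10.4 CPM in shoots and 2.82, 3.65 and 9.75 CPM in roots (1.46 ± 0.36, edgeR adjusted p = 0.00104). The groups overlapped at 7 d through the smallest libraries, shoot replicate 2 and root replicate 3. The call in controls at 24 h was the least stable: it ended with plain totals (0.41, adjusted p = 0.348), DESeq2 (adjusted p = 0.11), run as a covariate (edgeR adjusted p = 0.0612), without shoot replicate 3 (edgeR adjusted p = 0.0896) and without root replicate 2 (0.61, edgeR adjusted p = 0.304). The call with PA23 at 7 d ended with plain totals (0.74, edgeR adjusted p = 0.0909).

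**Figure D2:**
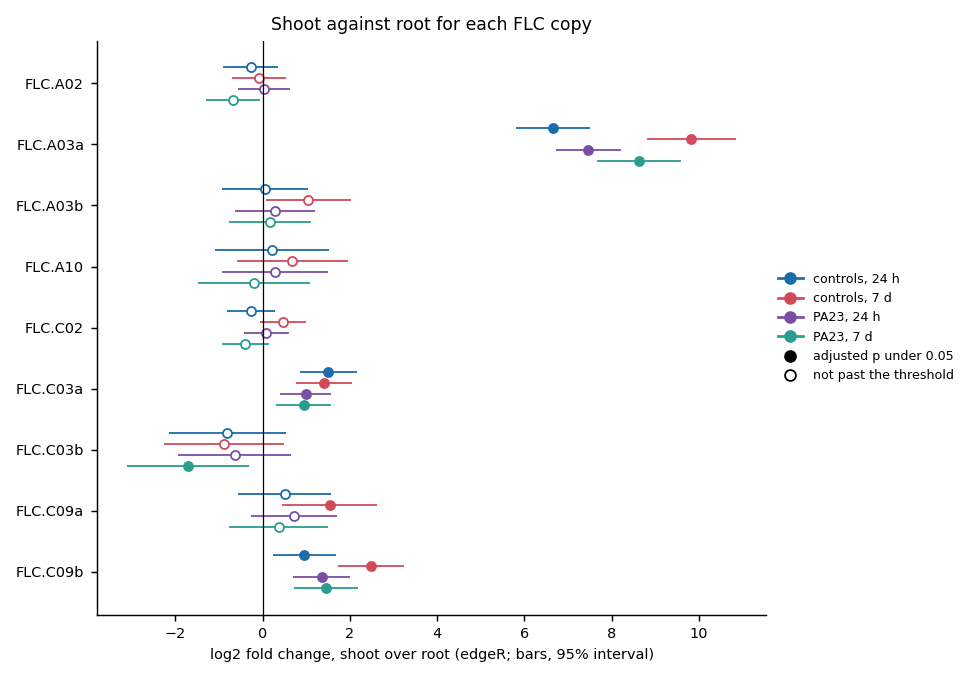
Log2 fold change of each FLC copy, shoot over root, in controls and with PA23 at 24 h and 7 d, from edgeR. Points are estimates and bars 95% intervals. FLC.A03a lies at 6.65 to 9.83, FLC.C03a at 0.95 to 1.51 and FLC.C09b at 0.96 to 2.48. FLC.A02 lies at -0.68 to 0.03 and FLC.C02 at -0.40 to 0.47.

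FLC.C09a, which lies near FLC.C09b on the same chromosome, was lower throughout, at 1.45 to 5.47 CPM in shoots and 0 to 2.79 CPM in roots. In controls at 7 d it was 3.39, 2.18 and 2.07 CPM in shoots and 0.882, 1.03 and 0 CPM in roots. The 2.18 CPM (3 counts) and the 0 came from libraries of under 2 M, where a count of 0 in roots allows up to 3.06 CPM, and the other 2 libraries of each tissue did not overlap. That was its sole call (1.54 ± 0.53, edgeR adjusted p = 0.015), and it ended with plain totals (1.03, edgeR adjusted p = 0.103) and without root replicate 1 (edgeR adjusted p = 0.0672). In controls at 24 h its shoot values of 1.62, 1.97 and 4.17 CPM surrounded its root values of 1.89 and 2.19 CPM. With PA23 at 24 h it passed without shoot replicate 2 (1.27, edgeR adjusted p = 0.0427).

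FLC.C02 had like levels in shoots and roots in controls. In control shoots it was 14.6, 11.9 and 11.5 CPM at 24 h and 11.1, 21.8 and 18.4 CPM at 7 d. In control roots it was 14.9 and 14.4 CPM at 24 h and 14.0, 11.2 and 6.13 CPM at 7 d. The tissues overlapped at both harvests. The edgeR log2 fold changes were -0.27 (95% interval -0.83 to 0.29) at 24 h and 0.47 (-0.06 to 1.00) at 7 d.

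FLC.A02, the A partner of FLC.C02, was also at like levels in the tissues in controls. It was 3.25, 10.3 and 10.8 CPM in control shoots and 10.6 and 12.2 CPM in control roots at 24 h. At 7 d it was 8.74, 8.7 and 10.1 CPM in control shoots and 9.65, 11.8 and 4.09 CPM in control roots. The outlying 3.25 and 4.09 CPM each came from 4 counts in a library of under 2 M. The edgeR log2 fold changes were -0.28 (-0.91 to 0.36) and -0.08 (-0.70 to 0.53). With PA23 the tissues overlapped for FLC.A02 and FLC.C02 at 24 h and not at 7 d. At 7 d FLC.A02 was 4.93 to 8.06 CPM in PA23 shoots and 9.75 to 13.2 CPM in PA23 roots. FLC.C02 was 9.86 to 12.3 CPM and 12.6 to 17.7 CPM there. Neither was called (edgeR adjusted p = 0.0635 and 0.209), and the share of all genes without overlap was not counted.

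Whether FLC.A02 and FLC.C02 were called between tissues turned on the scaling. Their direction also did with PA23 at 24 h, as did that of FLC.C02 in controls at 7 d. Plain library totals moved the median log2 fold change of all genes by -0.56, -0.57, -0.50 and -0.71 in controls at 24 h, controls at 7 d, PA23 at 24 h and PA23 at 7 d. Under them FLC.A02 and FLC.C02 were called lower in shoots in controls at 24 h (-0.83, adjusted p = 0.0153, and -0.82, adjusted p = 0.00626 in edgeR) and with PA23 at 7 d (-1.39, adjusted p = 0.000148, and -1.12, adjusted p = 0.00026 in edgeR), and FLC.A02 also in controls at 7 d (-0.66, edgeR adjusted p = 0.0465). With PA23 at 7 d FLC.A02 was at -0.68 under TMM scaling (edgeR adjusted p = 0.0635), and passed without the libraries of under 2 M counts (-0.69, edgeR adjusted p = 0.0027) and with RLE size factors (edgeR adjusted p = 0.0341). FLC.C02 in controls at 7 d was instead called higher in shoots without shoot replicate 1 (0.91, edgeR adjusted p = 0.00448).

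FLC.A03b, FLC.A10 and FLC.C03b were called between tissues once in all, and FLC.A10 and FLC.C03b were low. FLC.A03b was at 4.09 to 6.55 CPM in the 8 shoot libraries of 2 M or more and at 2.9 to 6.64 CPM in the 9 such root libraries. Its largest difference, in controls at 7 d, missed the threshold (1.05 ± 0.48, edgeR adjusted p = 0.065), although 5.81 and 6.33 CPM in shoots did not overlap 3.08 and 2.9 CPM in roots in the libraries of 2 M or more. It passed without the libraries of under 2 M (1.02, edgeR adjusted p = 0.00408) and without shoot replicate 1 (1.29, edgeR adjusted p = 0.0456). FLC.A10 was at 0.399 to 0.867 CPM in those shoot libraries and at 0.315 to 1.05 CPM in those root libraries.

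FLC.C03b leaned to roots. It was at 0.147 to 0.781 CPM in the 8 shoot libraries of 2 M or more and 0.507 to 1.29 CPM in the 9 root libraries. Its log2 fold change was below 0 in all 4 contrasts, from -1.71 to -0.64. FLC.A02 leaned the same way by pooled counts. Its shoot level was 0.908 and 0.907 times its root level in controls at 24 h and 7 d. With PA23 it was 0.897 and 0.62 times, although the edgeR log2 fold change with PA23 at 24 h was 0.03. The FLC.C03b levels with PA23 at 7 d were 0.534, 0 and 0.238 CPM in shoots and 0.773, 1.29 and 2.79 CPM in roots. The shoot value of 0 and the root value of 2.79 CPM (4 counts) came from libraries of under 2 M, where such levels cannot be ordered, and the other 2 libraries of each tissue did not overlap. That call (-1.71 ± 0.68, edgeR adjusted p = 0.0352) held in 7 of 14 alternative settings. Of the libraries left out in turn, shoot replicate 3 (edgeR adjusted p = 0.201), root replicate 2 (edgeR adjusted p = 0.101) and root replicate 3 (edgeR adjusted p = 0.0687) each ended it.

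The lowest copies could not be read in the small libraries. FLC.A10 and FLC.C03b were at 0 in 5 of the 6 libraries of under 2 M each, FLC.A03b in 3 and FLC.C09a in 1. A count of 0 there allows a level of up to 2.09 to 3.7 CPM, above the highest FLC.A10 level in any library of 2 M or more. FLC.A03a in roots was the other case: in the 9 root libraries of 2 M or more it was under 10 counts in 7 and at 0 in 1, and it did not pass the filter on low counts in the root fit, so that its PA23 and harvest effects in roots were not tested there. Fewer cells that express a copy and less RNA per cell cannot be told apart in these bulk samples.

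Set per kilobase of gene span, the order of the copies differed between tissues. In the 8 shoot libraries of 2 M or more the order was FLC.A03a (6.17 CPM per kb, range 4.21 to 8.68), FLC.C02 (3.71), FLC.C03a (3.21), FLC.C09b (2.45), FLC.A02 (2.39), FLC.A03b (1.01), FLC.C09a (0.575), FLC.A10 (0.145) and FLC.C03b (0.0661). The ranges of neighbours in that order overlapped except between FLC.A02 and FLC.A03b and between FLC.C09a and FLC.A10. In the 9 root libraries the order was FLC.C02 (3.93 CPM per kb, range 3.13 to 4.94), FLC.A02 (2.92), FLC.C03a (1.40), FLC.C09b (0.799), FLC.A03b (0.745), FLC.C09a (0.335), FLC.C03b (0.12), FLC.A10 (0.114) and FLC.A03a (0.0253). The ranges of neighbours there overlapped except between FLC.A02 and FLC.C03a, between FLC.A03b and FLC.C09a and between FLC.A10 and FLC.A03a. FLC.A03a ranked first in shoots and last in roots. Within groups it was first in all 4 shoot groups and last in all 4 root groups, and FLC.C02 was first in all 4 root groups.

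Against other genes, the abundance of the copies ran from low to fairly high, per kilobase of a span that includes any introns. Of the 77890 genes with a count in those shoot libraries, 80.2% had a lower mean CPM per kb than FLC.A03a, 70.8% than FLC.C02 and 21.2% than FLC.C03b. Of the 85236 genes with a count in the root libraries, 73.9% were lower than FLC.C02 and 17.8% lower than FLC.A03a.

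The summed level of the 9 copies was higher in shoots under TMM scaling. It was 73.8 ± 10.8 CPM (SD, n = 12, range 50.6 to 88.5) in shoots and 39.4 ± 8.27 CPM (n = 11, range 20.4 to 50.3) in roots. By group, the means were 69.6, 75.4, 82.4 and 67.9 CPM in shoot control and PA23 at 24 h and shoot control and PA23 at 7 d, and 44.2, 41.2, 29.4 and 44.5 CPM in the root groups in the same order. The lowest shoot library, at 50.6 CPM, was PA23 at 7 d replicate 2, of under 2 M counts, and lay just above the highest root library, PA23 at 7 d replicate 2. With plain library totals the sums came closer, at 60.4 ± 8.09 CPM in shoots and 48.6 ± 9.62 CPM in roots. By group they were then 57.2 CPM in shoots and 52.7 CPM in roots in controls at 24 h, 63.3 and 47.7 CPM with PA23 at 24 h, and 67.3 and 37.5 CPM in controls at 7 d. With PA23 at 7 d the direction turned, with 54.0 CPM in shoots and 57.7 CPM in roots.

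The A copies made up 49.1% ± 5.61 (SD, n = 12, range 39.5% to 58.4%) of the summed CPM per kb in shoots. In roots they made up 35.0% ± 5.39 (n = 11, range 25.2% to 42.4%). Shoot means were 44.2% in controls and 45.5% with PA23 at 24 h, and 51.7% and 55.0% at 7 d. Root means in the same order were 35.0%, 33.4%, 36.1% and 35.6%. The SD over a tissue thus includes differences between its groups. Most of the shoot A share was FLC.A03a, which alone held 32.6% of the sum in shoots and 0.191% in roots. Without FLC.A03a the A share was 24.3% in shoots and 34.9% in roots, so the direction between the tissues turned with this copy. These shares carry no test, since they are scores over chosen genes.

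**Figure D3:**
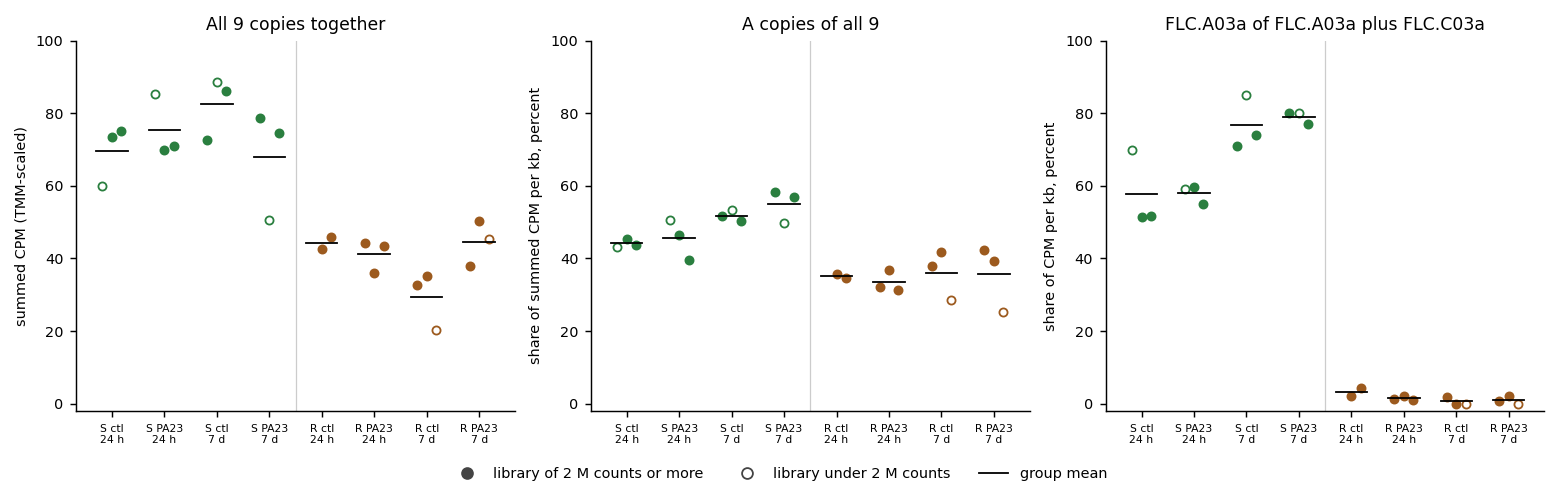
Summed CPM of all 9 copies, share of the A copies in their summed CPM per kb, and share of FLC.A03a in its sum with FLC.C03a, by group. Shares are in percent and points are libraries. The FLC.A03a share of the FLC.A03a and FLC.C03a sum lay at 51.5% to 85.1% in shoots and at 0% to 4.31% in roots.

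Within partner sets the balance of A and C differed from set to set. FLC.A03a held 51.5% to 69.8% of its sum with FLC.C03a in shoots at 24 h, 71.1% to 85.1% in shoots at 7 d and 0% to 4.31% in roots. FLC.A02 held 37.1% of its sum with FLC.C02 in shoots and 41.6% in roots, with overlapping ranges. FLC.A03b held most of its sum with FLC.C03b, at 93.6% ± 3.42 in the 8 shoot libraries and 85.9% ± 3.65 in the 9 root libraries of 2 M or more. FLC.A10 was the minor partner of the FLC.C09 copies, with 4.60% ± 1.09 in those shoot libraries and 9.71% ± 3.82 in those root libraries.

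No tested neighbour of FLC.A03a was as much higher in shoots as FLC.A03a itself. Of the 5 gene models on each side, a window chosen after values were seen, 7 were tested, and in controls 1 was called higher and 2 lower in shoots at both harvests. The highest log2 fold change among them was 1.10 at 24 h and 0.92 at 7 d, against 6.65 and 9.83 for FLC.A03a, and the lowest was -9.46 and -9.90. Around FLC.C03a 9 were tested, 1 was called higher and 4 lower at both harvests, and the highest reached 0.88 and 0.92. The nearest models lay 351 bases from FLC.A03a and 235 bases from FLC.C03a.

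**Figure D4:**
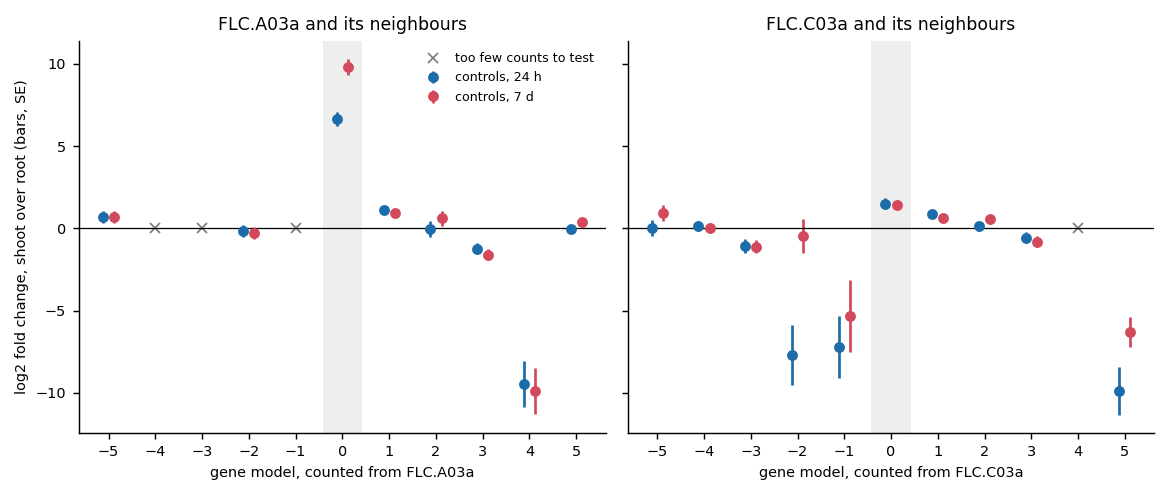
Log2 fold change, shoot over root, in controls at 24 h and 7 d for FLC.A03a, FLC.C03a and up to 5 tested gene models on each side, in order along the chromosome. Points are edgeR estimates and bars SE; FLC.A03a stands at 6.65 and 9.83 and its highest neighbour at 1.10.

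Between harvests, no copy passed the threshold in either tissue or treatment, and FLC.C03a had a log2 fold change below 0 in all 4 comparisons. Copies called numbered 0 of 9 in control shoots, 0 of 9 in PA23 shoots, 0 of 8 in control roots and 0 of 8 in PA23 roots, where 1.47%, 0.75%, 1.72% and 7.06% of all tested genes were called by edgeR. At an unadjusted edgeR p under 0.05 the copies numbered 1, 2, 3 and 1, where 10.7%, 8.89%, 12.6% and 23.5% of all tested genes passed that threshold. DESeq2 likewise called 0 copies in each.

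FLC.C03a in control shoots was 9.74 to 16.8 CPM at 24 h and 5.8 to 9.4 CPM at 7 d, and in PA23 shoots 12.4 to 14.4 CPM and 4.93 to 8.65 CPM. In control roots it was 5.33 to 5.35 CPM and 2.04 to 4.34 CPM, and in PA23 roots 4.95 to 7.39 CPM and 1.39 to 4.89 CPM. The harvests did not overlap in any of these 4 comparisons, though in PA23 roots and in control shoots they nearly met. The share of all genes without overlap, or with the same sign in all 4, was not counted. With 2 or 3 libraries per group, no weight can be put on it for this copy. The control shoot value of 9.74 CPM at 24 h came from 12 counts in a library of under 2 M. At 7 d the libraries of under 2 M held 2 to 8 counts each. Its edgeR log2 fold changes were -0.83 ± 0.27 (adjusted p = 0.153) in control shoots, -0.72 ± 0.28 (adjusted p = 0.368) in PA23 shoots, -0.72 ± 0.32 (adjusted p = 0.355) in control roots and -0.62 ± 0.29 (adjusted p = 0.207) in PA23 roots. Without the libraries of under 2 M counts the control shoot value was -0.86 and passed (edgeR adjusted p = 0.035).

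FLC.A03a had the opposite sign in shoots. Its edgeR log2 fold change from 24 h to 7 d was 0.49 ± 0.24 (adjusted p = 0.49) in controls and 0.66 ± 0.25 (adjusted p = 0.315) with PA23. The control groups met at 21.1 CPM, and the PA23 groups overlapped through replicate 2 at 7 d, of under 2 M counts. The FLC.A03a share of its sum with FLC.C03a, given above, is built from these values and those of FLC.C03a.

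In control roots all 8 tested copies had a log2 fold change below 0 at 7 d, with a median of -0.54 against -0.02 over all tested genes. FLC.C09a (-1.17 ± 0.45, edgeR adjusted p = 0.257) and FLC.C09b (-1.14 ± 0.46, edgeR adjusted p = 0.297) had the values farthest from 0 and did not pass. In PA23 roots 6 of the 8 were above 0, with a median of 0.21. Of all tested genes, 48% were above 0 in control roots and 47.7% in PA23 roots. Copies share libraries, so a common sign is not 8 separate observations. Root control at 7 d replicate 3 held 20 counts over all 9 copies.

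The change between harvests differed between tissues for FLC.A03a in controls, by 3.17 ± 0.75 on the log2 scale (edgeR adjusted p = 0.0322); no other copy was called. This was 1 of 9 copies, where 0.768% of tested genes were called. FLC.A03a failed the filter on low counts in the root fit and entered this joint fit through its shoot counts. Its root change was therefore not tested by itself. The root counts behind the difference were 22 at 24 h, 16 of them in replicate 3, and 4 at 7 d over the libraries of 2 M or more. The call ended in 7 of 19 settings, among them DESeq2 (adjusted p = 0.0625), summing the closest pairs (edgeR adjusted p = 0.086), and leaving out shoot control at 24 h replicate 2 (edgeR adjusted p = 0.0813), shoot control at 7 d replicate 2 (edgeR adjusted p = 0.0502), root control at 24 h replicate 3 (2.51, edgeR adjusted p = 0.399) and root control at 7 d replicate 2 (2.54, edgeR adjusted p = 0.175). Without root control at 7 d replicate 1, the sole library of its group with a count, the fitted difference was 7.13 and was still called.

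PA23 treatment changed no FLC copy past the threshold in either tissue at either harvest. Copies called numbered 0 of 8 in roots at 24 h, 0 of 8 in roots at 7 d, 0 of 9 in shoots at 24 h and 0 of 9 in shoots at 7 d. Of all tested genes edgeR called 0.268%, 0%, 0% and 0.00177%. No copy reached an unadjusted edgeR p under 0.05 in these contrasts, where 13%, 6.97%, 1.03% and 4.72% of all tested genes did, so that 0 of 8 or 9 copies is near the share of genes at large. No alternative setting, DESeq2 included, called any.

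**Figure D5:**
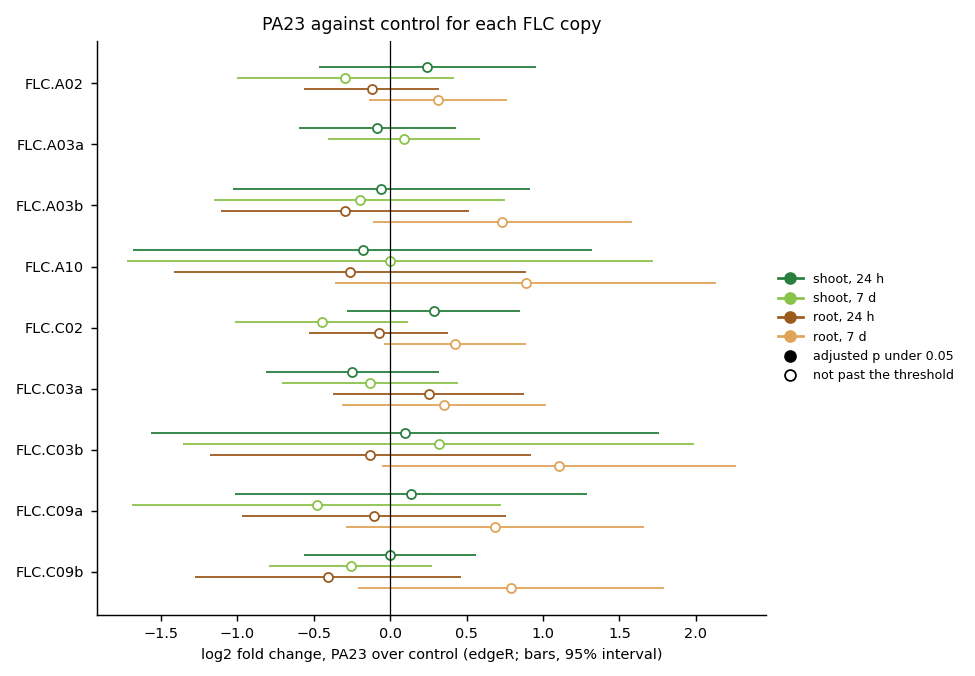
Log2 fold change of each FLC copy, PA23 over control, in shoots and roots at 24 h and 7 d, from edgeR with 95% intervals. All intervals include 0; in roots at 7 d the 8 tested copies lie between 0.31 and 1.10, and FLC.A03a was not tested in roots.

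In shoots the PA23 effects on the abundant copies were not called. For FLC.A03a they were -0.08 (95% interval -0.60 to 0.43) at 24 h and 0.09 (-0.40 to 0.59) at 7 d. For FLC.C03a they were -0.25 (-0.81 to 0.32) and -0.13 (-0.71 to 0.44). For FLC.C09b the interval ran from -0.56 to 0.56 at 24 h and from -0.79 to 0.28 at 7 d. Changes within these intervals, including none, are compatible with the data at this depth and number of libraries.

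FLC.C02 in shoots was 16.4, 14.0 and 15.0 CPM with PA23 against 14.6, 11.9 and 11.5 CPM in controls at 24 h. At 7 d it was 11.9, 9.86 and 12.3 CPM with PA23 against 11.1, 21.8 and 18.4 CPM in controls. The groups overlapped at both harvests, with log2 fold changes of 0.28 (-0.28 to 0.85) and -0.45 (-1.01 to 0.12).

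In roots at 24 h, 1 tested copy was above 0 and 7 below, with log2 fold changes from -0.40 to 0.25. In roots at 7 d all 8 were above 0, from 0.31 (FLC.A02) to 1.10 (FLC.C03b), with a median of 0.71, where 51.1% of all genes were above 0 with a median of 0.01. FLC.C02 was 12.6, 17.7 and 17.4 CPM with PA23 and 14.0, 11.2 and 6.13 CPM in controls (0.43, 95% interval -0.04 to 0.89; edgeR adjusted p = 0.741). FLC.A02 was 12.1, 13.2 and 9.75 CPM with PA23 and 9.65, 11.8 and 4.09 CPM in controls (0.31, -0.14 to 0.76; edgeR adjusted p = 0.819). The groups overlapped for both. Copies share libraries, so a common sign is not 8 separate observations, and the lowest edgeR adjusted p among the 8 was 0.729. All root PA23 libraries at 7 d were in the higher-numbered sequencing run, but root control replicates 1 and 3 at 7 d were in the lower-numbered one. Treatment and run were thus largely confounded there.

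Differences of the PA23 effect between harvests and between tissues were not called for any copy. Of all tested genes, 0.382% were called between harvests in roots, 0.00177% between harvests in shoots, 0.00147% between tissues at 24 h and 0.00294% between tissues at 7 d. The lowest edgeR adjusted p was 0.377 between harvests in roots (FLC.C09b), 1 between harvests in shoots, 0.984 between tissues at 24 h and 0.9 between tissues at 7 d. The 0.9 belonged to FLC.C02, whose PA23 effect was 0.87 lower on the log2 scale in shoots than in roots (-0.87, 95% interval -1.63 to -0.12), the sole copy at an unadjusted edgeR p under 0.05 in these 4 tests. Of all tested genes 15.4%, 2.6%, 5.37% and 5.21% were under it, in the same order.

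The 2 genes whose log2 CPM followed the summed FLC level most closely over the 17 libraries of 2 M or more, among 44318 genes, were BnaA09g21250D and BnaA01g01020D, each with a Pearson correlation of 0.98. BnaA09g21250D averaged 8.02 CPM in shoots and 2.39 CPM in roots, and BnaA01g01020D 55.1 and 29 CPM. These correlations describe libraries that fall into a shoot and a root cluster and share depth and scaling.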

How the data were processed

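The authors deposited unscaled read counts for 101040 gene IDs, with the gene span as length. The submitters' processing notes name HISAT2 and DESeq2 without versions; build, annotation, counter and strand setting are not given in the sources used for this work. Low counts were mostly even in 22 of 23 libraries, as when both mates of a pair are counted, so counting intervals may be too narrow. The exception was root PA23 at 7 d replicate 1, where 57.6% of low counts were odd. Groups and replicate numbers came from the titles, whose bracketed names in some cases hold another number.

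From these counts, edgeR 4.0.16 in R 4.3.3 was run over all genes (filterByExpr, TMM, robust quasi-likelihood test, threshold 0.05 on the Benjamini-Hochberg adjusted p). A fit per tissue gave the PA23 and harvest contrasts, and a joint fit of 23 libraries the tissue contrasts. The standard error is the size of the log2 fold change over the root of F. CPM uses TMM-scaled totals. Alternatives were RLE factors, plain totals (chosen after seeing the data), no filter, DESeq2 1.42.0, leaving out the 6 libraries under 2 M or each library, run as covariate, a replicate block, and summing the closest replicate pairs. The summed pairs were replicates 1 and 3 of shoot PA23 at 7 d, 2 and 3 of shoot control at 7 d, and 2 and 3 of root PA23 at 24 h. The PA23 pairs differed beyond sampling noise (chi-square per degree of freedom 1.53 and 2.06). The control pair, with a library of 1.7 M counts, was not compared in this way. All were kept apart in the main fits. The scripts were tested on simulated data.

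The members and lists were chosen with earlier results of these data known. All 9 copies are named, with the 2 genes closest to their summed level over libraries of 2 M or more. RefSeq symbols matched 3347 of 101040 IDs and carried no descriptions, so lists of other flowering genes and of tissue markers could not be filled. No sequence is printed, as no table used here holds one for these IDs.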

Additional observations from a re-analysis of the deposited data

Results flagged for a closer look

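The change of FLC.A03a (BnaA03g02820D) between 24 h and 7 d differed between shoot and root controls by 3.17 on the log2 scale, by a test of the difference itself (edgeR, adjusted p = 0.0322). In shoots the level was 16.3 to 21.1 CPM at 24 h and 21.1 to 31.2 CPM at 7 d, and in roots 0.108 to 0.226 CPM and 0 to 0.0415 CPM. The root side rests on 22 counts at 24 h and 4 at 7 d in the libraries of 2 M or more. In the root fit FLC.A03a failed the filter on low counts, so it was in the joint fit through its shoot counts. The call ended in 7 of 19 settings: DESeq2 (adjusted p = 0.0625), the replicate block (edgeR adjusted p = 0.0505), the closest pairs summed (edgeR adjusted p = 0.086) and 4 single libraries left out (edgeR adjusted p up to 0.399). It held without the libraries of under 2 M counts and with run as a covariate. Over the libraries left out in turn the difference ran from 2.51 to 7.13.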

How the results depend on the processing

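Of 257 counts of called copies under other settings, 247 stayed within 1.5 times the count reported and 10 did not; of 708 log2 fold changes of named copies, 646 kept direction and side of the threshold, 26 lost and 12 gained the call, and 24 changed sign. The copies called were 1 in control shoots between harvests without the libraries under 2 M, 2 in the tissues with PA23 at 7 d with the closest pairs summed (2 to 4 when each library was left out), and 0 for the harvest difference between tissues with DESeq2, the replicate block and the closest pairs summed (0 to 1 when each was left out). Without length correction the A share was 42.7% and 50.2% in control shoots at 24 h and 7 d and 36.7% in control roots at 24 h. With it the shares were 44.2%, 51.7% and 35.0%. Signs that changed belonged to values that had not passed. With plain library totals the shoot-over-root log2 fold change became -0.0655 for FLC.C09a in controls at 24 h, -0.13 for FLC.C02 in controls at 7 d, -0.46 for FLC.A02 and -0.40 for FLC.C02 with PA23 at 24 h, and -0.34 for FLC.C09a with PA23 at 7 d. Without the libraries under 2 M, FLC.A02 with PA23 at 24 h was -0.21. Leaving out each library gave -0.10 to 0.80 for FLC.C09a and, at 7 d, -0.21 to 0.17 for FLC.A02 in controls. With PA23 at 24 h it gave -0.32 to 1.27 for FLC.C09a, -0.21 to 0.28 for FLC.A02 and -0.0342 to 0.156 for FLC.C02, and with PA23 at 7 d -0.0768 to 0.709 for FLC.C09a. The PA23 effect in shoots ran from -0.156 to 0.0434 at 24 h and from -0.0239 to 0.223 at 7 d for FLC.A03a. For FLC.C09b at 24 h it ran from -0.0473 to 0.0632, and was -0.006 with RLE factors, -0.0062 with DESeq2 and -0.0133 without the libraries under 2 M. The causes were not tested. Deviations of libraries with equal replicate numbers correlated at -0.209 to 0.167 in roots and -0.315 to 0.175 in shoots. For unequal numbers the ranges were -0.163 to 0.227 and -0.212 to 0.392. With so few libraries per group, these values cannot decide whether replicate numbers pair the libraries. With the block the FLC.A03a harvest difference between tissues was 3.25 (edgeR adjusted p = 0.0505), and no other call of a named copy changed. Depth limits FLC.A10, FLC.C03b and root FLC.A03a.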
